A study of Homo sapiens with 2 samples.

Results

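The glycolytic enzyme loci described here are 8 enzyme genes, GAPDH, ENO1, PKM, TPI1, PGK1, LDHA, ALDOA and HK1, and 2 antisense genes, AC006064.4 within GAPDH and ENO1-AS1 at the start of ENO1. They were chosen by symbol, and all 10 were found among the 58347 genes of the count table. The counts came from eCLIP in HEL, a human erythroleukemia cell line: ultraviolet light links RNA to the proteins on it, an antibody pulls down U2AF2, and the RNA that comes with it is read. The samples were 1 group of 2 biological replicates of cells given no treatment, crosslinked at 400 mJ/cm2 and precipitated with 8 μg of anti-U2AF2 antibody. One field of the labels names the cell line as U2AF2, while the source and description give HEL. No input or control library was analysed here, so a value is a level in the precipitate and not an enrichment.

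Glycolysis splits glucose into pyruvate in the cytosol, and lactate dehydrogenase can turn the pyruvate into lactate. Its enzymes are among the most abundant proteins of dividing cells, and their genes hold several introns each. U2AF2 is the large subunit of U2AF, the splicing factor that binds the pyrimidine-rich tract just before the AG that ends an intron, the 3′ splice site or acceptor. An antisense gene is one annotated on the strand opposite to another gene. Over bases that both share, a read counted for it and a read counted for its partner differ only in strand.

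Genes held 995428 counts in replicate 1 and 1350116 in replicate 2, which was 2.63% ± 0.0465 (SD, n = 2) of the uniquely mapped reads. Most of the others, 36374618 in replicate 1 and 50621073 in replicate 2, fell on no counted feature. Where those reads lie, within introns or elsewhere, was not tested. Few counts on a gene are therefore not read here as little U2AF2 on its RNA. Reads mapping to several places, 21.4% ± 0.934 of all reads, are outside the gene counts. How strand entered the count is not given in the sources used here. Where a gene overlaps a partner on the other strand, it therefore cannot be told apart which of the 2 genes the reads over shared bases came from. The overlap differs by locus. All 422 exonic bases of AC006064.4 lie over GAPDH, but only 14 of the 2452 of SPSB2, the gene opposite TPI1, lie over TPI1. Values are given as deposited, and for the main results also with own and opposite counts exchanged, a setting chosen after seeing the data that is not a full recount on the other strand. Of the markers of the HEL lineages, 3 of 10 erythroid and 1 of 7 megakaryocyte genes reached 10 counts in each library. T cell, B cell and hepatocyte markers reached it in 0 of 5, 0 of 4 and 0 of 4 genes. Several defining markers were at or near 0, with 0 counts in both libraries for PF4 and 0 and 2 for ITGA2B, so these counts neither mark the line nor separate it clearly from other cells. The 10 members together held 0.368% ± 0.0332 (SD, n = 2) of all gene counts, nearly all of it on AC006064.4.

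The enzyme genes themselves held few counts, while genes on the other strand at GAPDH, ALDOA and TPI1 held many. Over the 8 loci the enzyme genes held 90 counts in replicate 1 and 125 in replicate 2, and the opposite-strand genes held 4536 and 5527. An opposite-strand gene here is any gene of the table whose merged exons lie over a base of the enzyme gene's span. At TPI1 this takes in all counts of SPSB2, of which only 14 exonic bases lie over TPI1. The opposite-strand share was 98.1% in replicate 1 (exact 95% binomial interval 97.6 to 98.4) and 97.8% in replicate 2 (97.4 to 98.2). With the counts exchanged it would be 1.95% and 2.21%, by construction the share of the enzyme genes as deposited. Most of the opposite-strand counts came from 1 locus, and without GAPDH the share was 91.4% ± 0.704 (SD, n = 2). Intervals cover counting error only.

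**Figure D1:**
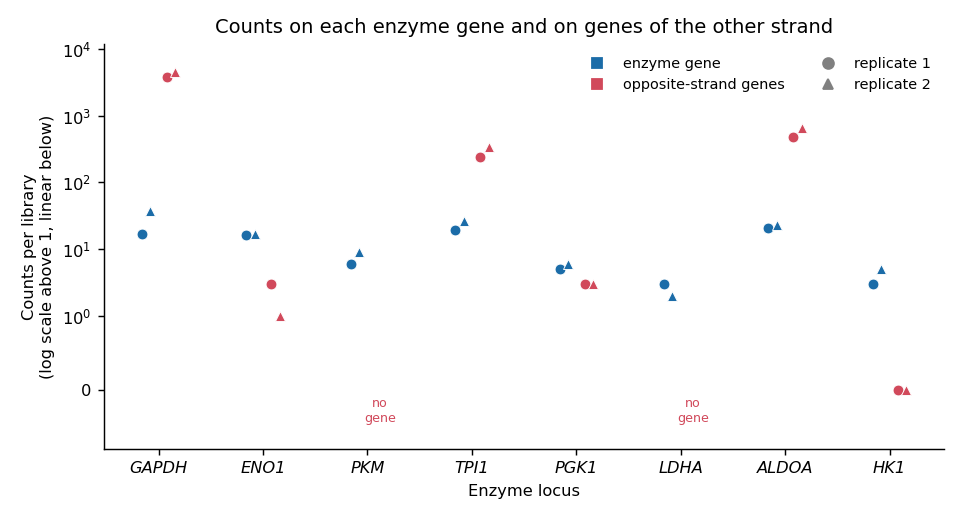
Counts per library (log scale above 1, linear below) on each of the 8 enzyme genes (blue) and on the genes of the other strand (red); circles are replicate 1 and triangles replicate 2. The red points stand far above the blue ones at GAPDH, TPI1 and ALDOA, below them at ENO1, PGK1 and HK1, and PKM and LDHA have no opposite-strand gene.

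GAPDH, which oxidises glyceraldehyde 3-phosphate, held 17 counts in replicate 1 and 37 in replicate 2. The antisense gene AC006064.4 (ENSG00000269968.1, chromosome 12, 6537794 to 6538370, minus strand, GRCh38) lies wholly inside GAPDH (6533927 to 6538374, plus strand) and held 3808 and 4531 counts. As deposited, both libraries held far more on AC006064.4, by 224-fold in replicate 1 and 122-fold in replicate 2. With the counts of the 2 genes exchanged, GAPDH would hold the 3808 and 4531, or 2797 per kb of exon over both libraries. AC006064.4 would hold the 17 and 37, or 128 per kb. This is a swap of totals, and a recount on the other strand need not give these values. The 422 exonic bases of AC006064.4 lie over only a part of the 2981 of GAPDH. The opposite-strand share of the locus was 99.4% ± 0.258 (SD, n = 2), with exact 95% intervals of 99.3 to 99.7 and 98.9 to 99.4 that overlap between the libraries.

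AC006064.4 has merged exons of only 422 bases, against 2981 for GAPDH, so the gap widens per length. Summed over both libraries it held 19761 counts per kb of exon, with an exact 95% Poisson interval of 19339 to 20189, and GAPDH held 18.1 (13.6 to 23.6). By counts per kb as deposited, a rank that rests on the strand assignment, it ranked 2 among 5452 antisense genes and 3 among all 58084 genes with a model. It took 1.25% of all antisense counts in replicate 1 (exact 95% interval 1.21 to 1.29) and 1.11% in replicate 2 (1.08 to 1.15).

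All 422 exonic bases of AC006064.4 lie over merged GAPDH exons at the 3′ end of the gene. Its 2 exons flank the last GAPDH intron, whose donor lies 12 bases and whose acceptor lies 41 bases from the nearest AC006064.4 exon. Both distances are shorter than the 100-base reads, but where the reads lie at this locus was not tested. The acceptor one intron upstream lies 211 bases away.

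ALDOA encodes the aldolase of muscle and most other tissues, which splits fructose 1,6-bisphosphate, and it held 21 and 23 counts. The single-exon antisense gene AC093512.1 (ENSG00000274904.1, chromosome 16, 30064306 to 30064825, minus strand) lies inside ALDOA (30064164 to 30070457, plus strand) and held 482 and 652 counts. The counts on it exceeded those on ALDOA in both libraries, and the opposite-strand share was 96.2% ± 0.543 (SD, n = 2). Its 520 bases held 2181 counts per kb over both libraries, against 11.2 for ALDOA (exact 95% Poisson interval 8.16 to 15.1). One ALDOA acceptor and 2 donors lie within the exon of AC093512.1.

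TPI1, triosephosphate isomerase, held 19 and 26 counts. SPSB2, a protein-coding gene of the SPRY and SOCS box family that ends tail to tail with TPI1 (chromosome 12, 6870935 to 6889358, minus strand), held 240 and 340 counts. The share on SPSB2 was 92.8% ± 0.164 (SD, n = 2), and the 2 libraries gave overlapping intervals, 88.8 to 95.5 and 89.8 to 95.3. Only 14 exonic bases of SPSB2 lie over TPI1, and the nearest TPI1 acceptor is 671 bases away. SPSB2 also lies opposite the protein-coding gene LRRC23, so its counts need not belong to the TPI1 locus.

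At the other enzyme loci the opposite strand held few or no counts. ENO1, the broadly expressed enolase, held 16 and 17 counts, and ENO1-AS1 (ENSG00000230679.1, chromosome 1, 8878835 to 8879894, plus strand) held 3 and 1. Here the order was turned, with an opposite-strand share of 15.8% (exact 95% interval 3.38 to 39.6) in replicate 1 and 5.56% (0.141 to 27.3) in replicate 2. Per kb of exon the genes could not be separated, at 8.77 counts for ENO1-AS1 (exact 95% Poisson interval 2.39 to 22.5) and 6.25 for ENO1 (4.31 to 8.78). ENO1-AS1 overlaps 126 exonic bases at the 5′ end of ENO1, 24 bases from the nearest ENO1 donor and 2532 bases from the nearest acceptor.

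PGK1, phosphoglycerate kinase, held 5 and 6 counts, and PGAM4, a single-exon phosphoglycerate mutase gene inside its span, held 3 and 3. PGK1 also shares exonic bases on its own strand with ATP7A, which a count per gene may leave as ambiguous. HK1, hexokinase 1, held 3 and 5 counts, and the ribosomal protein pseudogene RPS15AP28 inside it held 0 in both libraries. Scaled to a library of 1000000 counts (CPM), a count of 0 allows up to 2.98 CPM in replicate 1 and 2.25 in replicate 2, which is the value of 3 counts. An HK1 acceptor lies within the exon of RPS15AP28. PKM, the pyruvate kinase of most tissues, held 6 and 9 counts and LDHA, lactate dehydrogenase A, 3 and 2, and neither has a gene on the other strand.

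**Figure D2:**
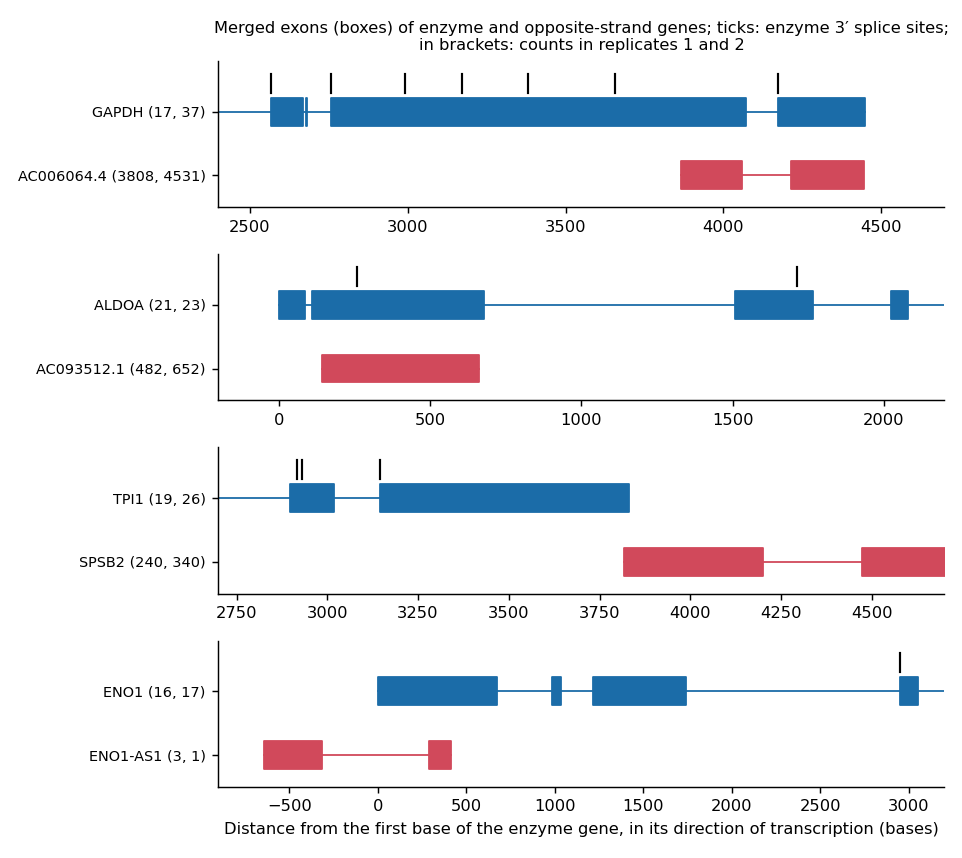
Merged exons (boxes) of GAPDH, ALDOA, TPI1 and ENO1 (blue) and of the opposite-strand gene of each (red), for the stretch of each locus around that gene, drawn to scale in bases from the first base of the enzyme gene; black ticks are enzyme acceptors and brackets give counts in replicates 1 and 2. AC093512.1 holds an ALDOA acceptor, AC006064.4 flanks the last GAPDH acceptor at 41 bases, and SPSB2 and ENO1-AS1 have none nearby.

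U2AF2 is known to bind RNA at acceptors, and some from these loci are shown to let their pyrimidine tracts be seen. Whether it bound at the ones shown was not tested. The acceptors shown are a selection and not all that could be read. The last 30 intron bases of each were read from the GENCODE 29 transcripts (GRCh38) on the strand of the enzyme gene, 5′ to 3′, and capitals mark the longest unbroken run of C and T. The last acceptor of GAPDH is not shown, since no transcript sequence covers it.
GAPDH 211 bases from AC006064.4 (chr12:6537554-6537583, plus strand): gtacgctgcagggcctcaCTCCTTTTgcag
GAPDH 486 bases from AC006064.4 (chr12:6537279-6537308, plus strand): acttgcgccccgCTCCCTCTTTCTTTgcag
HK1 within RPS15AP28 (chr10:69300739-69300768, plus strand): taagaacctggtgtttgTCTCTCTTTTCag
ENO1, far from ENO1-AS1 (chr1:8870884-8870913, minus strand): aTTTTTCCTTCTTCatcctctgctgggcag
LDHA, with no opposite-strand gene (chr11:18402810-18402839, plus strand): gggtgatttttaTTTTCTCCTTTTTCatag
PKM, with no opposite-strand gene (chr15:72203189-72203218, minus strand): ccttgCCCCCTCTTCCCCTaaaccttacag

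The GAPDH acceptor 486 bases from AC006064.4 was 76.7% pyrimidine with an unbroken run of 14 bases, and the LDHA and PKM acceptors shown also had runs of 14. The HK1 acceptor under RPS15AP28 was 63.3% pyrimidine with a run of 11. The ALDOA acceptor within AC093512.1, whose sequence is not shown, was 76.7% pyrimidine with a run of 14. Among all readable acceptors, the median pyrimidine content was 66.7% for GAPDH (5 acceptors), 66.7% for ALDOA (10), 68.3% for PKM (8) and 55% for LDHA (10). It was 63.3% over 40815 readable acceptors of all protein-coding genes, with quartiles of 56.7 and 70%. Readable acceptors are those that an exon of some transcript covers, so they lean toward introns that are retained or have alternative sites.

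The share on the other strand was then set beside other protein-coding loci. Of 6957 protein-coding genes with an opposite-strand gene and at least 20 counts in all, summed over both strands and both libraries, 64% had more counts on the opposite strand than on their own in both libraries, and 31.6% had fewer in both. The median opposite-strand share was 78.9%, with quartiles of 30 and 96%. Of the 4 enzyme loci that met the same minimum, 3 had more on the opposite strand (GAPDH, TPI1 and ALDOA) and 1 had fewer (ENO1). TPI1 is placed by SPSB2, of which only 14 exonic bases lie over it. With 3 of 4 against 64%, that count is near the background, and nothing particular to glycolytic enzymes is read from it. Where the opposite-strand genes included an antisense gene, as at GAPDH, ALDOA and ENO1, the background was 70.4% of 2945 loci and the median share 86.4%, with an upper quartile of 97.4%. GAPDH lay above that quartile at 99.4% and ALDOA below it at 96.2%.

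Antisense genes were also divided by whether they have a splice site of an opposite protein-coding gene in or within 100 bases of their exons, a division chosen after the member values were seen. The 1353 genes with both an acceptor and a donor had a median of 53.4 counts per kb of exon over both libraries (quartiles 1.87 and 313), and the 371 with an acceptor only had 46.4. The 647 with a donor only had 22.4, the 2364 with neither 7.18, and the 717 not over a protein-coding gene 0. The quartiles overlap widely between the divisions, and these genes differ in length and in the partner's abundance, whose part in the order was not tested.

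AC006064.4 and AC093512.1 both fell among genes with an acceptor and a donor, at ranks 2 and 31 of 1353. ENO1-AS1 fell among those with a donor only, at rank 382 of 647 and below their median. With splice sites inside exons only, AC006064.4 and ENO1-AS1 both fell among the genes with neither, since the GAPDH and ENO1 sites lie just outside their exons. Among all antisense genes 37.6% reached 10 counts in both libraries, as AC006064.4 did and ENO1-AS1 did not. ENO1-AS1 ranked 2740 of 5452 by counts per kb, near their median of 9.12.

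**Figure D3:**
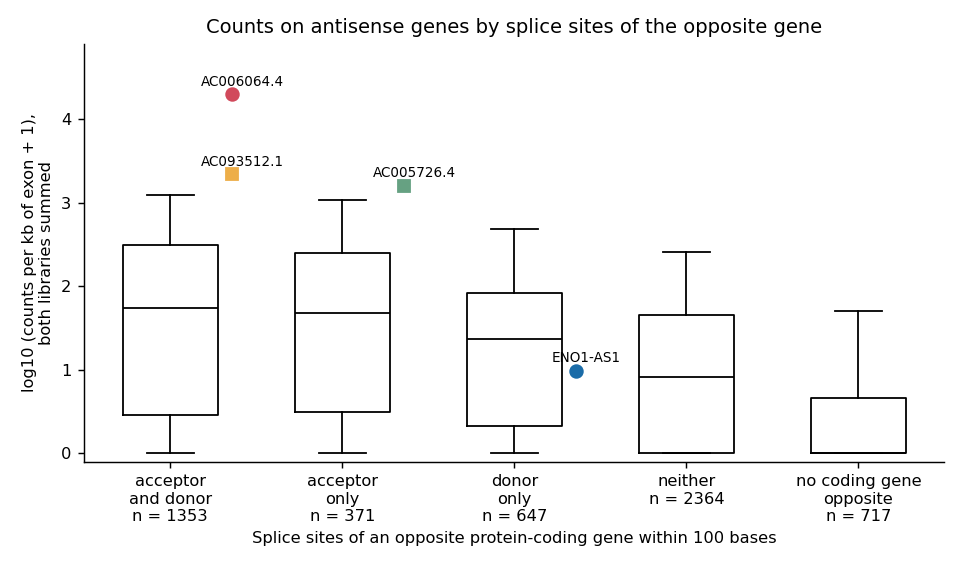
Counts per kb of exon summed over both libraries, as log10 (value + 1), of antisense genes grouped by the splice sites of the opposite protein-coding gene within 100 bases; boxes show the median and quartiles and whiskers the 5th and 95th percentiles. Points are single genes, AC005726.4 being the antisense gene inside ALDOC. AC006064.4 and AC093512.1 stand above the upper whisker of the genes with an acceptor and a donor, and ENO1-AS1 lies below the median of those with a donor only.

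On their own strand, as deposited, 4 of the 8 enzyme genes lay above the other 4 in level per length. GAPDH led with 18.1 counts per kb of exon over both libraries, followed by TPI1 with 16.7, ALDOA with 11.2 and ENO1 with 6.25. PGK1 held 2.00, PKM 1.75, HK1 1.27 and LDHA 0.805. The intervals of GAPDH and TPI1 overlap (12.2 to 22.3 for TPI1), as do those of ALDOA with TPI1 and with ENO1. The interval of ENO1 (4.31 to 8.78) lies wholly below those of TPI1 and GAPDH, so the 4 highest genes also differ among themselves. The 4 lowest genes overlap one another, from 0.261 to 1.88 for LDHA up to 0.996 to 3.57 for PGK1, and all lie below the lower bound of 4.31 for ENO1. The median protein-coding gene held 0.911, and LDHA was the only enzyme of the 8 below it as deposited. Exchanging own and opposite totals would give GAPDH 2797 per kb, ALDOA 290, TPI1 215 and ENO1 0.758. This is a swap of totals and not a recount, which need not give those values. Only 14 of the 2452 exonic bases of SPSB2 lie over TPI1, and 126 of the 456 of ENO1-AS1 over ENO1. Whether the order of these genes, or the place of ENO1 against that median, depends on the strand assignment was not tested. The minimum of 10 counts in both libraries was reached, as deposited, by 4 of the 8 enzymes (GAPDH, TPI1, ALDOA and ENO1). Of protein-coding genes 24.8% reached it, and of all genes 15.4%. In the same swap of totals ENO1 would hold 3 and 1 and miss it.

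Between the replicates AC006064.4 differed, by a small amount, and no other member tested passed. Among the 8983 genes that reached the minimum, 0.501% differed between the libraries by an exact binomial test at an adjusted p of 0.05 (Benjamini-Hochberg), 0.111% with more in replicate 1 and 0.39% with more in replicate 2. Of the members 5 were tested, and 1 was called. AC006064.4 held 3777 CPM in replicate 1 and 3399 in replicate 2, a log2 difference of -0.15 with an adjusted exact p of 0.000753. GAPDH moved the other way, with 16.9 and 27.8 CPM and a log2 difference of 0.72, which did not pass (adjusted exact p = 0.712). The adjusted exact p was 0.989 for ENO1, 0.981 for ALDOA and 1 for TPI1. AC093512.1 and SPSB2 did not pass either, at 0.944 for SPSB2 and 1 for AC093512.1.

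**Figure D4:**
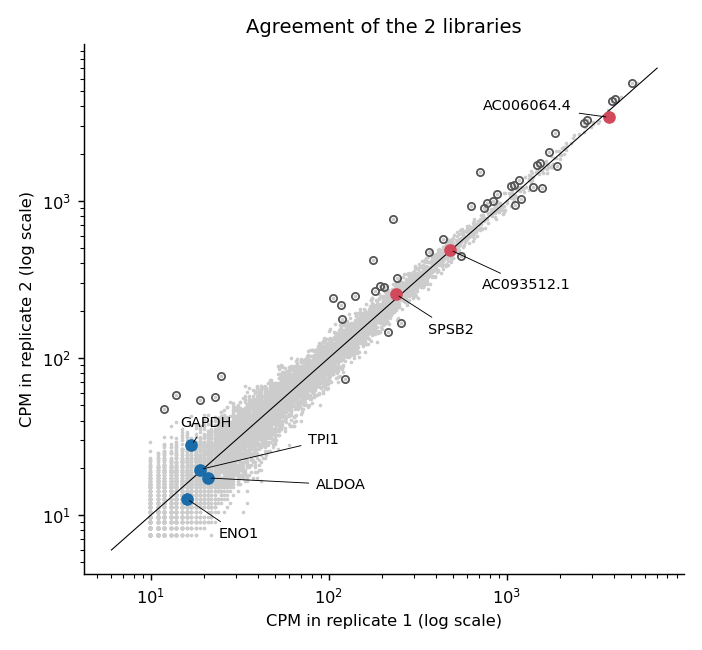
CPM in replicate 1 against replicate 2 (both log scales) for the 8983 genes tested; open circles differ between the libraries, blue points are enzyme genes, red points genes of the other strand, and the line marks equal values. AC006064.4 sits just below the line at the top right, and GAPDH above it at low counts.

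The same reactions are run by isozymes, encoded by other genes of the family. In 3 families, as deposited, an isozyme of narrow tissue range held nearly all counts. GAPDHS, the sperm form of GAPDH, held 592 and 751 counts, or 97.2% and 95.3% of the counts of the pair. ENO3, the muscle enolase, held 973 and 1164 counts, 98.0% and 97.6% of the enolase counts. Per kb of exon GAPDHS held 884 counts over both libraries and ENO3 498, against 18.1 for GAPDH and 6.25 for ENO1.

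These isozymes lie opposite other genes. ENO3 overlaps PFN1, the gene of the abundant actin-binding protein profilin 1, which held only 6 and 7 counts on its own strand. Exchanging the totals would leave ENO3 with 6 and 7. Of the 1987 exonic bases of PFN1 only 111 lie over ENO3 exons, so a recount on the other strand need not give those values. GAPDHS lies opposite TMEM147-AS1, with 52 and 62 counts. TMEM147-AS1 also lies opposite the protein-coding gene TMEM147, and 924 of its 4859 exonic bases lie over GAPDHS exons. With totals exchanged in the same way, GAPDHS would hold 52 and 62 and GAPDH 3808 and 4531. The order of GAPDHS and GAPDH may thus rest on the strand assignment, though this too is a swap of totals and not a recount. PGAM2, the muscle phosphoglycerate mutase, followed with 152 and 195 counts and 405 counts per kb, or 92.1% and 96.1% of its family, against 10 and 5 counts for PGAM1. It lies opposite DBNL, an actin-binding adaptor gene with 65 and 81. The aldolase gene ALDOC, named after its values were seen, held 1 and 1 counts, while the antisense gene AC005726.4 inside it held 225 and 251, or 1597 counts per kb. That locus resembled GAPDH and ALDOA in having most of its counts on the other strand, with a share of 99.6% ± 0.0323 (SD, n = 2).

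The other families held fewer counts. The 5 hexokinases held at most 16 counts in either library, reached by HK2. Among lactate dehydrogenases LDHAL6B, a single-exon gene inside the span of MYO1E on the other strand, led with 13 and 27 counts, ahead of LDHA with 3 and 2. These families were compared with their values known.

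The wider setting was given by 6 lists of other genes around glycolysis, 76 genes in all. Of these 28 (36.8%) reached the minimum, against 24.8% of protein-coding genes, and 7 held 0 in both libraries. The median was 1.93 counts per kb, against 0.911 for all protein-coding genes. By list, 10 of 25 isozymes and remaining glycolytic genes reached the minimum, 5 of 10 glucose and lactate transporters, 3 of 13 regulators, 2 of 8 gluconeogenic genes, 3 of 9 pentose phosphate genes and 5 of 11 genes of pyruvate entry into mitochondria.

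Among transporters SLC16A8, a monocarboxylate transporter gene, led with 175 and 235 counts and 186 counts per kb. BSG, the chaperone basigin of those transporters, held 37 and 49, and SLC16A3, the lactate exporter of glycolytic cells, 66 and 79. Of the regulators PFKFB2, which makes and removes fructose 2,6-bisphosphate, held 211 and 315 counts. The pyruvate dehydrogenase kinase genes PDK2 and PDK1 held 83 and 75 and 40 and 43 counts.

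In the pentose phosphate pathway TKT, transketolase, held 552 and 701 counts, or 132 per kb, with no gene on the other strand. TALDO1, transaldolase, held 47 and 55. PC, pyruvate carboxylase, led gluconeogenesis with 50 and 61, followed per kb by PCK2 with 17 and 20. PDHA1, the alpha subunit of pyruvate dehydrogenase, held 70 and 110, and the pyruvate carrier gene MPC2 35 and 52. TKT and SLC16A8 show that high counts also fell on genes of this list with no annotated gene opposite. Of the 28 list genes tested between the replicates, 1 differed, against a background of 0.501%. It was GPI, glucose-6-phosphate isomerase, named after its values were seen, which held 19 counts in replicate 1 and 72 in replicate 2 (adjusted exact p = 0.00376).

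The enzymes have processed pseudogenes, intronless copies of their mRNAs elsewhere in the genome. The table holds 62 copies named after GAPDH, which together held 284 and 358 counts, more than the 17 and 37 of GAPDH. Of these, 6 reached 10 counts in each library, and all 6 lie opposite a protein-coding gene. GAPDHP39, named with LDHAP2 after the values were seen and with 80 and 102 counts, led them and lies within PIK3CB on the other strand. Of the 84 copies of the 8 enzymes, 7 reached the minimum, the seventh being LDHAP2 with 47 and 77 counts, within LYST. Over all processed pseudogenes 8.14% reached it, and of those 74.1% lay opposite a protein-coding gene, against 21% of all processed pseudogenes. Reads shared by near-identical copies are outside the gene counts, so levels of GAPDH and its copies are uncertain.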

How the data were processed

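The authors deposited raw counts per gene for both libraries, and rows tallying unassigned reads, which entered neither library sizes nor tests. The submitters' processing notes name STAR 2.7.0f, cutadapt and the build GRCh38.p10. How duplicates were handled, which annotation release was used and how strand was treated in counting are not given in the sources used here. Every count column could be tied to a library.

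Gene models came from GENCODE 29 (GRCh38), looked up by identifier with the version dropped; 58084 of 58347 had a model, and 6 of the 10 members carried the same version (not ENO1, PGK1, ALDOA and HK1). Lengths are merged exons. Library sizes were scaled by TMM in edgeR 4.0.16 under R 4.3.3, with factors of 1.01 and 0.987. DESeq2 1.42.0 gave alternative size factors. Genes reaching 10 counts in both libraries were compared by an exact, two-sided conditional binomial test with Benjamini-Hochberg adjustment at 0.05, checked on simulated data. With 1 group no quasi-likelihood test was possible, and p-values measure only the difference of these 2 libraries. Intervals are exact at 95% and cover counting error only, since reads may include PCR copies. Python 3.11.15, numpy 2.4.6, scipy 1.17.1 and matplotlib 3.10.9 were used.

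The members, lists and rules were chosen with earlier results of these data known. Named genes were the members and their opposite-strand genes with at least 10 counts. The 3 genes of each list with the most counts per kb were named too, with their opposite-strand genes of at least 10 counts. So were the 3 single-exon antisense genes nearest to AC006064.4 and the 3 protein-coding genes nearest to GAPDH, by log2 CPM (prior count 2). Not all of these, nor every sequence read, are reported here.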

Additional observations from a re-analysis of the deposited data

How the results depend on the processing

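Over the 8 loci the opposite-strand share was 97.9%, and 97.8 to 98.1% when either replicate was left out. It was 99.7% per kb of exon and, in a setting chosen after seeing the data, 91.4% without the GAPDH locus. With own and opposite counts exchanged, also chosen then, it was 2.08%, which is by construction the share of the enzyme genes as deposited. It moved by less than the spread between replicates under the 3 other rules for opposite-strand genes. The single-locus share fell to 0 at TPI1 and ENO1 when only genes wholly inside the enzyme gene were counted, at TPI1 and PGK1 when only non-coding ones were, and at PGK1 when exons had to overlap. The other 33 of the 38 alternatives in scaling or rule for single genes and loci moved by less than the spread between replicates. Leaving out 1 of 2 replicates cannot move a mean past that spread, so it says nothing of stability. The number of genes differing between the replicates was 45, and 71 with no filter on low counts. AC006064.4 was the 1 member called under each of the 4 alternatives, with adjusted exact p from 3.20e-06 to 0.00120. Of the members and list genes together, 33 reached 10 counts in each library and 20 reached 20. The ratio of median counts per kb between antisense genes with both splice sites and with neither was 7.44, and 7.16 to 8.17 when a replicate was left out. Where the 2 libraries disagreed, the cause was not tested. No paired analysis was possible because the libraries form 1 group. At the counts of PKM, PGK1, LDHA and HK1, differences per kb between these 4 genes were not detectable at this depth.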

Other observations

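By summed distance in log2 CPM over the 2 libraries, the single-exon antisense genes nearest to AC006064.4 were AC003681.1 (0.44), U47924.2 (0.60) and AC037198.2 (0.64), out of 703. AC006064.4 itself has 2 exons, and antisense genes of several exons were not searched. Each lies opposite a protein-coding gene, MTMR3, C12orf57 and THBS1. They held 3064 and 4140, 2739 and 4154, and 4425 and 6068 counts. Per kb of exon AC037198.2 held 19949 counts, close to the 19761 of AC006064.4, while U47924.2 held 6284 and AC003681.1 only 146. The protein-coding genes nearest to GAPDH were SWT1 and RBBP4, with the same 17 and 37 counts, and LMNB1 with 17 and 38. With 2 libraries this likeness describes level alone.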
